A study of Mus musculus with 7 samples.

Results

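The 10 genes described here, Hamp, Hfe2, Tfr2, Hfe, Trf, Cp, Fth1, Slc40a1, Mt1 and Mt2, make the proteins with which the liver senses, carries, stores and releases iron, or binds copper and zinc. They were 10 of 22365 annotated genes with protein-coding transcripts. For each gene, every accessible region in the gene body or within 20 kb on either side was taken from genome-wide maps of male C57BL/6 mouse liver at 8 weeks of age. The maps were made with Benzonase and Cyanase, endonucleases used on pulverized frozen tissue (3 samples each, at 0.25, 1 and 4 U by the labels), and with DNase I, used on nuclei purified from fresh tissue (1 sample in the labels). All samples shared that strain, sex and age. Each nuclease had 1 list of hotspots, the stretches of the genome in which it cut more often than in the background, called on the pooled tags of its samples. The nuclease, the state of the tissue, the purification of nuclei and the depth of sequencing changed together, so their parts in any difference between DNase I and the others cannot be told apart. Because each list was pooled there was no spread between samples and no test between nucleases could be run. Liver holds several cell types, and accessibility in more cells cannot be told apart from more accessibility per cell.

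Iron leaves cells through ferroportin, the product of Slc40a1, and hepcidin, the hormone encoded by Hamp, binds ferroportin and has it degraded. Hepatocytes adjust hepcidin to the iron in the blood through the membrane proteins HFE, hemojuvelin (Hfe2) and transferrin receptor 2 (Tfr2), which act on or beside the BMP and SMAD pathway. Transferrin (Trf) carries iron in plasma, ceruloplasmin (Cp) is a copper protein that oxidizes iron for loading onto transferrin, ferritin heavy chain (Fth1) stores iron in the cytosol, and the metallothioneins Mt1 and Mt2 are small cysteine-rich proteins that bind zinc and copper and are induced by both metals.

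The promoters of Hamp, Mt1 and Mt2 carried short elements by which these genes are known to be regulated. All sequences are reference sequence of mm9, read 5′ to 3′ on the strand of the gene, and positions count from the first annotated transcription start site (TSS), the base before which is -1. The 250 bases upstream of Hamp (chr7:31729037-31729286, minus strand) and of its copy Hamp2 (chr7:31709201-31709450, minus strand) are shown because they are largely alike and were not covered alike. Capitals mark GGCGCC, the core of the BMP response element, and TTCNNNGAA, the STAT element through which inflammation raises hepcidin.
Hamp: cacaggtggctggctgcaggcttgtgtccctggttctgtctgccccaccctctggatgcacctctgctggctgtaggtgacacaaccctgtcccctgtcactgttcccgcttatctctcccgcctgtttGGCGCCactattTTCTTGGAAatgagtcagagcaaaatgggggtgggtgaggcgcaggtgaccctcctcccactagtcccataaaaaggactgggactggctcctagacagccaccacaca
Hamp2: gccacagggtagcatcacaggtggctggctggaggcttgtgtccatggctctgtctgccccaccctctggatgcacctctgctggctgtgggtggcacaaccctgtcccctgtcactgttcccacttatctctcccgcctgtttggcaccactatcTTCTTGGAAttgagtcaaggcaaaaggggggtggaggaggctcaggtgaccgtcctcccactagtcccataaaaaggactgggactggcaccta
These sequences were identical in 82.3% of 265 aligned columns. Hamp held GGCGCC at -121 and TTCTTGGAA at -109, and all 3 hotspot lists covered both. Hamp2 held TTCTTGGAA at -94, which Benzonase and Cyanase hotspots covered and no DNase I hotspot did, and it held no GGCGCC in this stretch. Of all 22365 promoters, searched on both strands over the same length, 11.3% held GGCGCC and 6.81% held TTCNNNGAA. The study gives the depth of its Benzonase and Cyanase libraries in uniquely aligning tags, and the handling of DNase I tags that match both gene copies was not given in the sources used here.

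Metal response elements, bound by the zinc sensor MTF1, are known from the metallothionein promoters. The stretches upstream of Mt1 (chr8:96702739-96702988, plus strand) and Mt2 (chr8:96696268-96696517, plus strand) are printed with every TGCGCNC and TGCACNC, on either strand, in capitals.
Mt1: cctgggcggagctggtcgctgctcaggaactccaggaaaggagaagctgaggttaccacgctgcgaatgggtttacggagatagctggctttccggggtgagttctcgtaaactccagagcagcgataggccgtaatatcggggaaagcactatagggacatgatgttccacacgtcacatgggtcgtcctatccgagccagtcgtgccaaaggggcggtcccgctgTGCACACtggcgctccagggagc
Mt2: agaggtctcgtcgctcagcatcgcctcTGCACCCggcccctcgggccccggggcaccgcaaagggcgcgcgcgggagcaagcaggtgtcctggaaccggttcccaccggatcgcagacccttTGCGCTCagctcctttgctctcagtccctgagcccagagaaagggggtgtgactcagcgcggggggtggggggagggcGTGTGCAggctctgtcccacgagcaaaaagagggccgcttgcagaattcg
Downstream of the first TSS more of these elements followed, of which the pair nearest the TSS and the last of each gene are given with their flanks.
Mt1 site at 2: ccagggagctcTGCACTCcgcccgaaaag
Mt1 site at 98: tgcaaacccttTGCGCCCggactcgtcca
Mt2 site at 4: gaattcgggtcGTGCGCAggcccaggggc
Mt2 site at 111: ggcggagctttTGCGCTCgacccaatact
Over the 250 bases upstream and an equal length downstream, Mt1 held 5 such matches and Mt2 held 7. Of all promoters, 43.1% held at least 1 match and 1.86% held 4 or more in a window of this length. All 5 matches of Mt1 lay in hotspots of all 3 lists, and all were upstream of a second annotated Mt1 TSS at 96703111. At Mt2 the match at -223 (96696295 to 96696301) lay in the Benzonase and Cyanase hotspots and across the bound of the DNase I hotspot, which began at 96696300, and the other 6 lay in all 3. The upstream stretches of Mt1 and Mt2 were identical in 46.7% of 270 aligned columns, less than those of Hamp and Hamp2.

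Ferritin heavy chain and ferroportin messages carry iron-responsive elements, hairpins with a CAGTGN loop that bind the iron regulatory proteins and slow translation when iron is scarce. The DNA of both hairpins is shown with the loop in capitals, at chr19:10057222-10057251 (plus strand) and chr1:45982309-45982338 (minus strand).
Fth1: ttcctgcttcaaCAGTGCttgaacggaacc
Slc40a1: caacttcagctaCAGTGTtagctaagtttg
The loops began at 41 and 113 downstream of the TSS. In each, 5 of 5 bases on either side of the loop could pair, and hotspots of all 3 nucleases covered the hairpin DNA, so at both genes the DNA that encodes the hairpin lay within the accessible promoter region.

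Not all members had promoters of this kind. The upstream stretch of Cp (chr3:19856804-19857053, plus strand) and that of Fth1 (chr19:10056943-10057192, plus strand) are set side by side, with each CG in capitals, because they were the poorest and the richest in GC among the members.
Cp: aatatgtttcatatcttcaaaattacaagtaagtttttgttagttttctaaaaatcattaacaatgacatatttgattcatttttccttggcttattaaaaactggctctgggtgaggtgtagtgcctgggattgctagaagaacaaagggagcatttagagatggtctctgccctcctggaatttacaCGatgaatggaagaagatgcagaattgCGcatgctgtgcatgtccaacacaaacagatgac
Fth1: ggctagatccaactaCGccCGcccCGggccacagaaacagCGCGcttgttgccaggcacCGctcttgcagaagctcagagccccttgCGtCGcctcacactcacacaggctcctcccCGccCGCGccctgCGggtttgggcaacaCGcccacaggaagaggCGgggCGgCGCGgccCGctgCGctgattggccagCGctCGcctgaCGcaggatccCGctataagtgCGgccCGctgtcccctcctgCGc
GC content was 37.2% upstream of Cp, with 2 CG, and 70.0% upstream of Fth1, with 26. All 3 nucleases had a hotspot over the TSS of both. CpG islands, long stretches rich in CG that mark many promoters, lay over the TSS of Fth1, Slc40a1, Mt1 and Mt2 and over no TSS of the other 6 members. 

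Other elements were sparse among the members. A TTCNNNGAA match stood upstream of Hfe2 at -133, and Mt2 held the antioxidant response element TGACNNNGC at -79, both in hotspots of all 3 lists. Mt1 held TGACNNNGC at 52, downstream of its first TSS and likewise in all 3. Trf held 1 metal response element, at 115 downstream of its TSS and also in all 3. In the 250 bases upstream, TATAAA matched at Hfe2 alone, on the opposite strand at -234, and 12.3% of all promoters held it there. Downstream of the first TSS it matched at Mt1 (121), Mt2 (135) and Cp (168 and 170), in hotspots of all 3 lists. E-box (CACGTG) and forkhead (TGTTTAC) had no match upstream of any member, and 6.53% and 2.71% of all promoters held them. No match says only that these letters are not in this window.

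The TSS of all 10 genes lay in a Benzonase hotspot and in a Cyanase hotspot, and 9 of 10 lay in a DNase I hotspot, the exception being Hfe. Of all genes, 57.4% had a TSS in a Benzonase hotspot, 55.7% in a Cyanase hotspot and 47.4% in a DNase I hotspot. A hotspot of all 3 lists covered the TSS of 46.1% of genes, and 8.81% had the pattern of Hfe, with Benzonase and Cyanase but not DNase I. The reverse pattern, DNase I alone, was found at 0.867% of genes and at no member, and 40.9% of genes, again no member, had no TSS hotspot. The lists differed in any way at 13.1% of genes and at 1 of 10 members. In the markers that were checked, all 6 hepatocyte genes had a TSS hotspot in every list and none of 3 erythroid genes had any. Of 3 Kupffer cell markers, 0, 1 and 3 had a TSS in a Benzonase, Cyanase and DNase I hotspot, so TSS hotspots at genes of the resident macrophages, which recycle iron, differed in number between the lists. The windows of all 3 held hotspots of every list. The part of Kupffer cells in the results below was not tested. Of 3 sinusoidal endothelial markers, 1 had a TSS hotspot with Benzonase and with Cyanase and 0 with DNase I, and of 4 genes not of liver only Gfap had one, with Cyanase.

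The 10 windows together spanned 498290 bp and held 71 Benzonase, 69 Cyanase and 79 DNase I hotspots. Those are 14.2, 13.8 and 15.9 hotspots per 100 kb, against 2.29, 2.17 and 2.72 over the genome. A window had a median of 7.5, 7.5 and 8 hotspots, with ranges of 3 to 13, 5 to 13 and 5 to 13, whereas the median over all genes was 3 for each nuclease. All 10 windows held hotspots of every list, as did 82.2%, 80.7% and 79.3% of the windows of all genes with Benzonase, Cyanase and DNase I in turn. Trf had the most, 13 in each list, and Hfe2 and Tfr2 the fewest. The windows of Mt1 and Mt2 held the same hotspots, which were counted once.

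**Figure D1:**
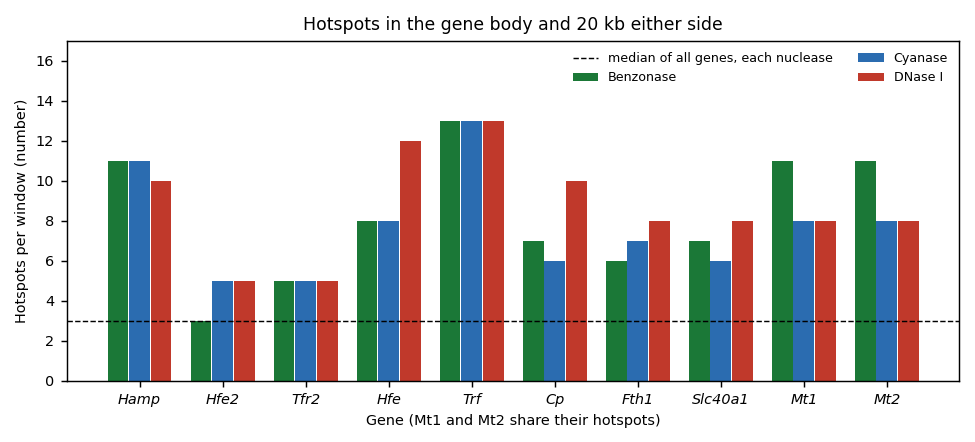
Bars give the number of hotspots in the gene body and 20 kb either side of each gene (vertical axis) for Benzonase, Cyanase and DNase I, and the dashed line is the median over all genes, 3 for each nuclease. Trf has 13 in each list, DNase I has more than the others at Hfe (12 against 8 and 8) and Cp (10 against 7 and 6), and Benzonase has more at Mt1 and Mt2 (11 against 8 and 8).

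Hamp (ENSMUSG00000050440.7) lies on the minus strand at chr7:31727390-31729036 and has 3 exons. The hotspot over its TSS and first exon ran from 31728648 to 31729747 with Benzonase (1100 bp), from 31728635 to 31729896 with Cyanase (1262 bp) and from 31728772 to 31729760 with DNase I (989 bp). The upstream bound of Benzonase and DNase I differed by 13 bp, while Cyanase reached further out. A second region of all 3 nucleases lay at chr7:31730211-31731231, between 1175 and 2195 bp upstream of the TSS. DNase I alone had a hotspot of 1246 bp past the 3′ end of the gene, at chr7:31726005-31727250, with a GC content of 40.6%.

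Upstream of Hamp the window held Usf2, which encodes an E-box binding transcription factor and lies beside Hamp in the mouse. The widest hotspots of the window covered the Usf2 TSS, 2871 bp with Benzonase and 2498 bp with Cyanase. DNase I had 2 hotspots there, of 945 and 703 bp, with a gap of 845 bp between them at chr7:31741443-31742287. That gap, which Benzonase covered, had a GC content of 77.9%, the highest of any stretch of the 10 windows that DNase I left uncovered between its own hotspots. At the other end of the window, Hamp2 had a TSS hotspot of 613 bp with Benzonase and 634 bp with Cyanase, and none with DNase I. Over the whole Hamp window hotspots covered 10607 bp with Benzonase, 10407 bp with Cyanase and 8080 bp with DNase I.

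Of the sensors of iron, Hfe2 (ENSMUSG00000038403.9, chr3:96329108-96333139, plus strand, 4 exons) differed in how its promoter was divided. It encodes hemojuvelin, a BMP co-receptor. Benzonase had a single hotspot of 2828 bp over the TSS that ran to the third exon, at chr3:96328713-96331540. Cyanase divided the same stretch into hotspots of 631, 779 and 907 bp. Upstream of it Benzonase had a separate hotspot of 315 bp and Cyanase one of 625 bp. DNase I had 1662 bp over the TSS, which took in that upstream stretch and reached 1317 bp from the TSS, and further hotspots of 695 and 630 bp. All 3 thus covered the TSS and exon 1 and overlapped exons 2 and 3, but the bounds inside that region were not shared. The 2 gaps of DNase I, 355 and 427 bp, had a GC content of 49.3% and 55.5%.

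Tfr2 (ENSMUSG00000029716.8, chr5:138011079-138028709, plus strand, 20 exons) had the most alike TSS hotspots of all members. They measured 709 bp with Benzonase, 705 bp with Cyanase and 707 bp with DNase I, and no bound differed by more than 38 bp. The next region, over exons 3 to 5, differed more: 1375 bp with Benzonase and 1285 bp with Cyanase, against 686 bp with DNase I. The 687 bp that DNase I left out there, at its downstream end, had a GC content of 59.7%. A region over exon 12 was shared by all 3, with 892, 855 and 875 bp. The TSS of Mospd3, the next gene downstream, lay in hotspots of every list.

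Hfe (ENSMUSG00000006611.8, chr13:23793903-23802723, minus strand, 6 exons), whose loss in humans causes hereditary haemochromatosis, was the member whose TSS lay in hotspots of Benzonase and Cyanase but not of DNase I. Benzonase had a hotspot of 1387 bp at chr13:23801526-23802912 and Cyanase 1301 bp at chr13:23801541-23802841, and both covered the 2 upstream TSSs and exon 1. The DNase I hotspot shared the inner bound, beginning at 23801522, but ended at 23802234 with 713 bp. It lay wholly in the first intron and stopped 349 and 489 bp short of those TSSs. Another TSS, at 23797557 inside the gene, lay in no hotspot. The DNase I hotspot had a GC content of 48.4% and the stretch beyond it, covered by the others, 53.7%. The part of that stretch upstream of the first TSS (chr13:23802724-23802912, minus strand) is shown because only Benzonase reached its far end. This part had a GC content of 45.5%, below that of the DNase I hotspot. Capitals mark TGACNNNGC, the core of the antioxidant response element, at -67, which Benzonase and Cyanase covered and DNase I did not, and which 9.98% of all upstream stretches of 250 bases held.
Hfe: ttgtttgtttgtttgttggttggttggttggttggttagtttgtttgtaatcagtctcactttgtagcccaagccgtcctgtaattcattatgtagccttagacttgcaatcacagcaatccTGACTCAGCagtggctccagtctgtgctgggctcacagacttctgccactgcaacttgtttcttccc

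The lists thus differed in where the hotspot ended, since all 3 had one within 1 kb of the Hfe TSS. The Hfe window as a whole held 12 DNase I hotspots against 8 in each of the other lists. Of its 12 regions 4 were DNase I unique, near the 28.3% of all regions. None was Benzonase-Cyanase unique, against 26.3% of all regions. Those 4 lay among histone genes downstream of Hfe, and measured 252 to 629 bp. The TSSs of Hist1h2ac, Hist1h2bc and Hist1h4c were in hotspots of every list, and histone genes are near-identical copies, whose share of uniquely aligning sequence was not tested.

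**Figure D2:**
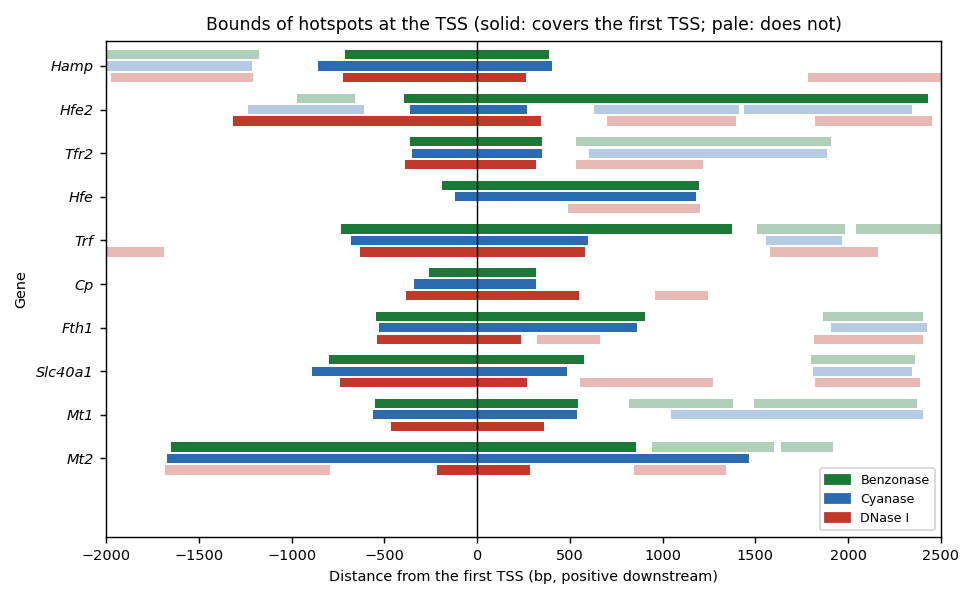
Horizontal bars run from the start to the end of each hotspot near the TSS, in bp from the first annotated TSS (positive downstream), for each gene and nuclease. Solid bars cover that TSS and pale ones do not, and at Hfe the DNase I hotspot begins 489 bp downstream of it while the Benzonase and Cyanase hotspots cover it.

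Transferrin (Trf, ENSMUSG00000032554.9, chr9:103106331-103132774, minus strand, 17 exons) is among the most abundant proteins that hepatocytes secrete. Its TSS hotspot measured 2107 bp with Benzonase, 1281 bp with Cyanase and 1214 bp with DNase I, and the upstream bounds lay within 100 bp of each other. The Benzonase hotspot reached 793 bp further into the first intron than that of DNase I, over sequence with a GC content of 52.7%. Upstream, 5 regions between 3416 and 18772 bp from the TSS were each covered by all 3 nucleases. They measured 699 to 1311 bp. Unique regions lay inside the gene. Cyanase alone had 282 bp over exon 6, at chr9:103125748-103126029, and Benzonase and Cyanase had 599 bp over exon 4, at chr9:103127735-103128333. DNase I alone had 1768 bp and 254 bp near the 3′ end of the annotated gene, at chr9:103107962-103109729 and chr9:103107692-103107945. The first of these was the widest DNase I hotspot of the 10 windows. Both were classed as intronic but lay beyond exon 17 of the transcript used for exon numbers, at 103111125-103111408. An internal TSS at 103130772 lay in a DNase I hotspot and 17 and 34 bp outside those of Benzonase and Cyanase.

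Ceruloplasmin (Cp) is ENSMUSG00000003617.10, at chr3:19857054-19909145 on the plus strand, with 20 exons. The TSS hotspot measured 579 bp with Benzonase, 661 bp with Cyanase and 937 bp with DNase I, and it was the only TSS hotspot that was wider with DNase I than with both others. The 233 bp that DNase I added on the downstream side had a GC content of 32.6%. Across the Cp window hotspots covered 4.92% of the sequence with Benzonase, 4.56% with Cyanase and 7.31% with DNase I. DNase I unique regions of 287 and 292 bp lay in introns of the gene, at chr3:19858013-19858299 and chr3:19868310-19868601, with a GC content of 31.4% and 46.6%. Another intronic region, at chr3:19861219-19861903, was found by Benzonase and DNase I and not by Cyanase. The widest hotspot of this window, 950 bp at chr3:19862565-19863514, was a DNase I hotspot in a region of all 3 nucleases.

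Ferritin heavy chain (Fth1, ENSMUSG00000024661.6, chr19:10057193-10059582, plus strand, 4 exons) and ferroportin (Slc40a1, ENSMUSG00000025993.4, chr1:45964915-45982439, minus strand, 8 exons) have CpG island promoters and the iron-responsive elements shown above. At Fth1 the TSS region was 1 hotspot with Benzonase (1450 bp, 10056647 to 10058096) and with Cyanase (1394 bp, 10056664 to 10058057). DNase I divided it into 776 bp over the TSS and 342 bp downstream, separated by 85 bp with a GC content of 58.8%. The upstream bounds lay within 17 bp of each other in all 3 lists. At Slc40a1 Benzonase and Cyanase had hotspots of 1378 and 1375 bp over the TSS. DNase I had 1009 bp over the TSS and a second hotspot of 716 bp over exon 2, at chr1:45981167-45981882, of which 696 bp lay outside the other lists with a GC content of 39.2%. The DNase I hotspots over both TSSs, with a GC content of 62.1% at Fth1 and 59.0% at Slc40a1, were themselves GC rich.

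Around Fth1 the Benzonase list matched the others least by covered sequence. Of 10 regions in its window 5 were common, 2 DNase I unique and 3 Benzonase-Cyanase unique. These counts were near the shares over all regions, 45.4%, 28.3% and 26.3%. Of the 3 Benzonase-Cyanase unique regions, Benzonase and Cyanase each had 1 alone. The sequence covered by both Benzonase and Cyanase was 72.2% of that covered by either, the lowest of the members, and for Benzonase and DNase I it was 46.4%, again the lowest. For Cyanase and DNase I it was 51.2% at Fth1, and the lowest value was 47.9%, at Cp. At Slc40a1 the 3 shares were 85.2%, 68.5% and 70.5%. Downstream of its TSS region the gene body held a shared intronic region and one over exon 3, and no unique region.

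**Figure D3:**
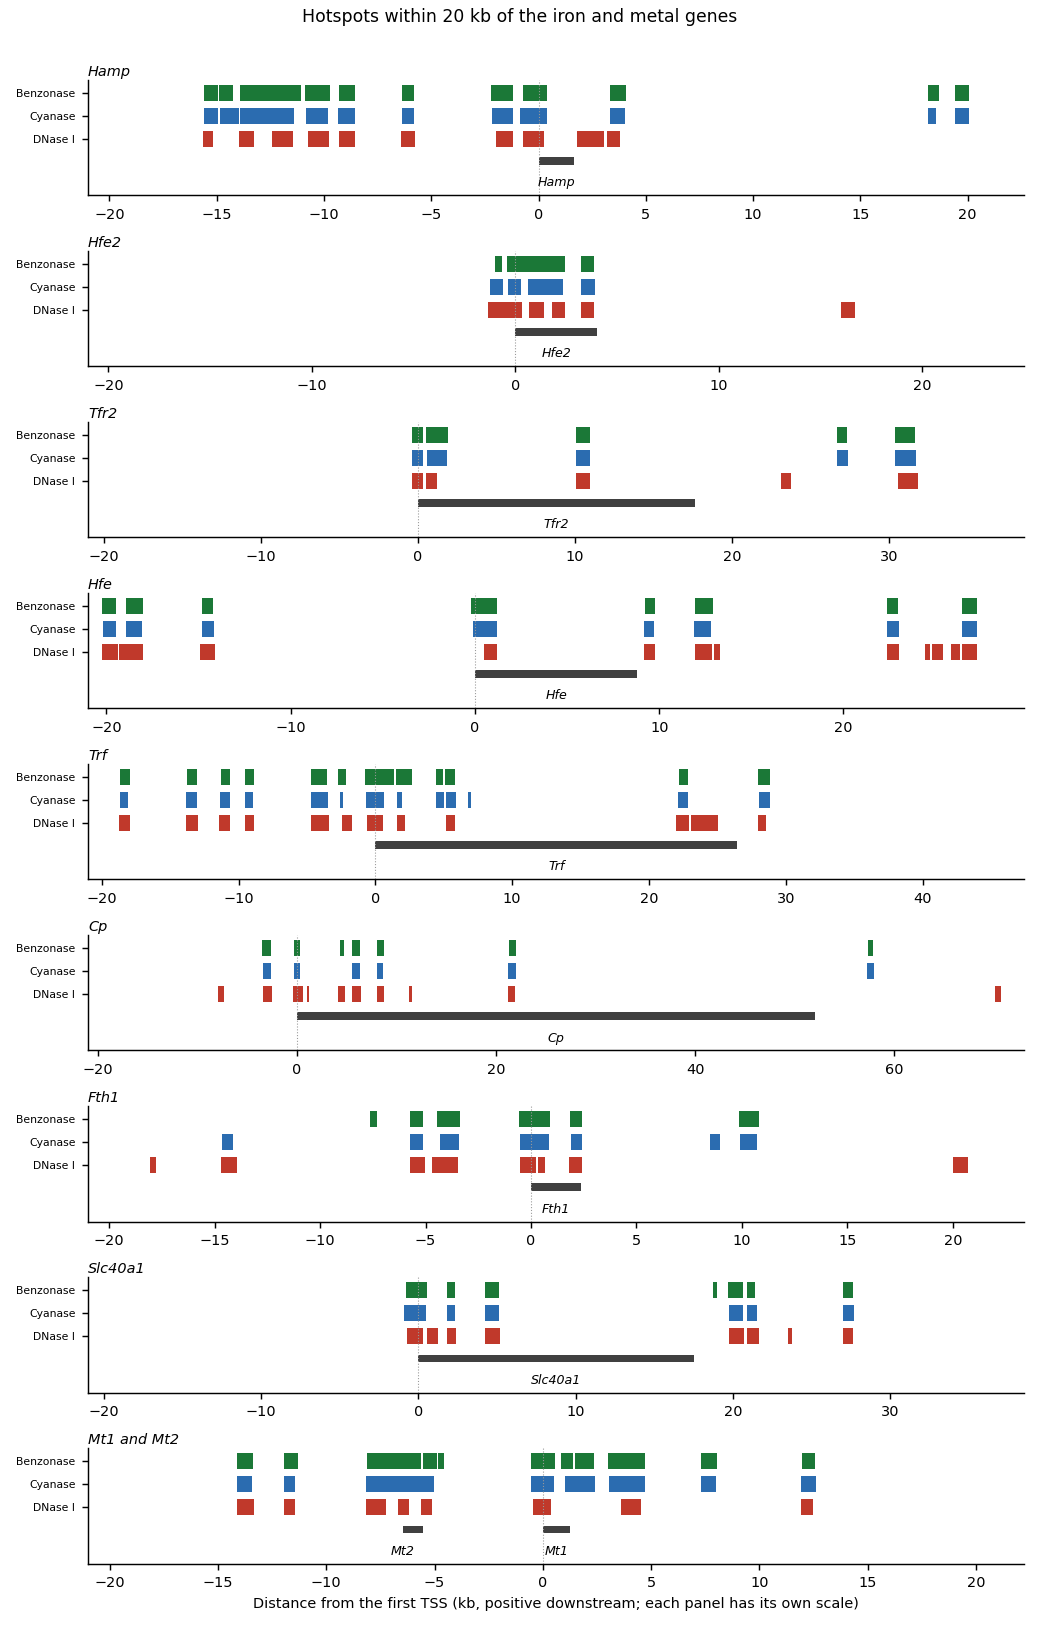
Each panel shows the hotspots (coloured boxes, 1 track per nuclease) around a gene, by distance from its first TSS in kb, positive downstream, with the gene body as a dark bar; the horizontal scale differs between panels. Shared regions stand above each other. DNase I has hotspots of its own in every panel except that of Mt1 and Mt2. Hfe and Cp have the most of these, 4 regions each. At Mt1 and Mt2 the tracks of Benzonase and Cyanase are fuller than that of DNase I.

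Mt2 (ENSMUSG00000031762.6, chr8:96696518-96697467, 3 exons) and Mt1 (ENSMUSG00000031765.6, chr8:96702989-96704225, 2 exons) lie in tandem on the plus strand. The Mt2 TSS lay in the widest hotspot of all 10 windows, 3135 bp with Cyanase at chr8:96694847-96697981, which covered the whole gene. Benzonase had 2504 bp over the TSS and 657 bp after it. DNase I had 503 bp over the TSS, at chr8:96696300-96696802, and flanking hotspots of 895 and 496 bp. Its gaps of 572 and 562 bp had a GC content of 54.9% and 56.6%, below the 65.2% of the DNase I hotspot over the TSS. At Mt1 the TSS hotspot measured 1098 bp with both Benzonase and Cyanase and 826 bp with DNase I, and the bounds of Benzonase and Cyanase differed by 6 bp on each side.

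No region at the metallothionein genes was DNase I unique, a class that held 28.3% of all regions. Of 9 regions 6 were common (45.4% of all regions) and 3 Benzonase-Cyanase unique (26.3% of all regions). The first of these overlapped the last exon of Mt1 and ran on beyond the gene, at chr8:96703809-96705394, as 563 and 876 bp with Benzonase and 1362 bp with Cyanase. The second, of 282 bp with Benzonase alone, lay between Mt2 and Mt1 at chr8:96698156-96698437. The third, of 755 bp with Benzonase and 712 bp with Cyanase, lay 7282 to 8055 bp downstream of the Mt1 TSS. DNase I alone covered 97 bp of the Mt1 and Mt2 window, whereas Benzonase or Cyanase without DNase I covered 5388 bp. Hotspots covered 25.3% of the Mt1 window with Benzonase, 24.0% with Cyanase and 13.4% with DNase I.

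**Figure D4:**
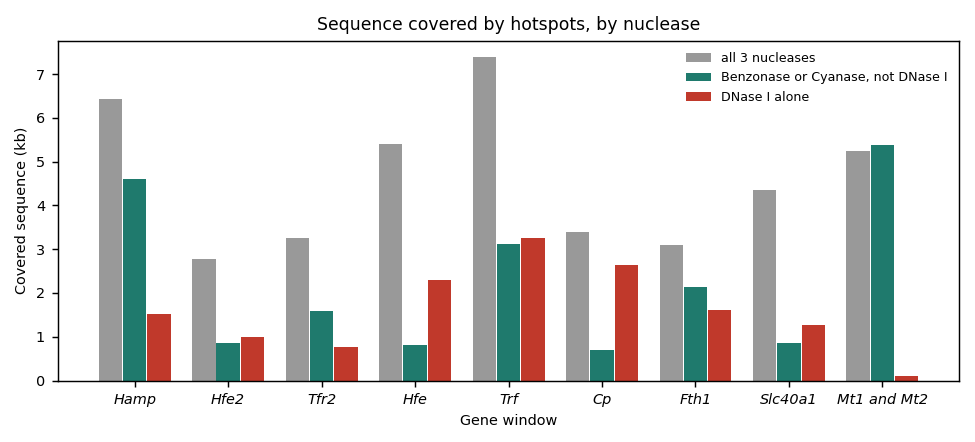
Bars give the sequence in each gene window, in kb, that is covered by hotspots of all 3 nucleases, by Benzonase or Cyanase without DNase I, and by DNase I alone. DNase I alone covers more than Benzonase or Cyanase alone at Cp (2641 against 699 bp) and Hfe (2296 against 819 bp), and less at Mt1 and Mt2 (97 against 5388 bp) and Hamp (1526 against 4596 bp).

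Across the 10 windows, hotspots joined by an overlap of at least 1 bp formed 86 regions, of 94491 in the series. Common regions, with DNase I and at least 1 of the others, numbered 56, or 65.1% (95% Wilson interval 54.6 to 74.3), against 45.4% of all regions. All 3 lists had a hotspot in 54 regions, or 62.8%, against 40.0% in the series. DNase I unique regions numbered 16, or 18.6% (11.8 to 28.1), against 28.3%, and Benzonase-Cyanase unique regions 14, or 16.3% (9.95 to 25.5), against 26.3%. The intervals cover counting error only. Of the 14, both enzymes had a hotspot in 9, only Benzonase in 3 and only Cyanase in 2. The regions of 1 window are neighbours and not replicates, and these shares describe the windows.

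By annotation, the 56 common regions comprised 18 at promoters (within 2 kb upstream of a TSS or over one), 9 in exons, 8 in introns, 4 downstream of genes and 17 distal. Over the series these places held 27.3%, 7.35%, 32.1%, 1.77% and 31.5% of common regions. The 16 DNase I unique regions comprised 3 at promoters, none in exons, 6 in introns, 2 downstream and 5 distal, where the series had 4.51%, 5.72%, 42.3%, 1.79% and 45.6%. The 14 Benzonase-Cyanase unique regions comprised 4 at promoters, 5 in exons, 1 in an intron, 2 downstream and 2 distal, where the series had 14.1%, 11.8%, 28.7%, 1.72% and 43.6%. A region was called promoter before exon, so the Cyanase region over exon 6 of Trf counted as a promoter. These counts therefore leave out exonic regions that also lay at a promoter. The lack of DNase I unique regions called exonic is to be read beside their small share in the series, 5.72%.

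GC content was lowest in the DNase I unique class and highest in the Benzonase-Cyanase unique class. It was 42.4% ± 4.69 (SD across regions, n = 16) in DNase I unique regions, 48.0% ± 6.27 (n = 56) in common regions and 53.3% ± 4.40 (n = 14) in Benzonase-Cyanase unique regions. When hotspots had to overlap by 50% of each other, the means were 46.5% (n = 25), 47.6% (n = 54) and 53.4% (n = 24), and the DNase I unique class came close to the common one. Over the whole series the means were 42.3%, 49.5% and 54.7%, so the members differed little from the rest. Of the 14 Benzonase-Cyanase unique regions, 13 had a GC content above that of every DNase I unique region, the exception being 271 bp past the 3′ end of Slc40a1 at 43.5%. CpG islands lay at 10 of 56 common regions (22.1% in the series), 1 of 16 DNase I unique regions (0.198%) and 1 of 14 Benzonase-Cyanase unique regions (14.1%).

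The central 150 bases of 3 unique regions are printed as examples, on the plus strand with each CG in capitals. The Cp region was chosen for the lowest GC content among the DNase I unique regions in that gene. The Mt1 region was chosen for the highest among the Benzonase-Cyanase unique regions of its window. The first is the DNase I unique region downstream of Hamp (chr7:31726553-31726702), the second the DNase I unique region in the first intron of Cp (chr3:19858082-19858231) and the third the Benzonase-Cyanase unique region downstream of Mt1 (chr8:96710583-96710732).
Hamp, downstream: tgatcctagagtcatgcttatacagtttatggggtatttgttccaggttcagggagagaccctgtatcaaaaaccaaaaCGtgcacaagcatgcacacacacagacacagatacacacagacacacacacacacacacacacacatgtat
Cp, intron: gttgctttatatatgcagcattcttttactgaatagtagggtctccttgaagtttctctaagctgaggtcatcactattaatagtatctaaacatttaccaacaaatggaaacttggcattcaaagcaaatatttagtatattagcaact
Mt1, downstream: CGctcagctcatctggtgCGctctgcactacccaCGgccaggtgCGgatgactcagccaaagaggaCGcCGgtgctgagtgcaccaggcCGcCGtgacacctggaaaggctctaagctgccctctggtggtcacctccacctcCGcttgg
Their GC content was 44.0%, 32.0% and 64.7%. The stretch near Hamp ends in a run of CA repeats, and that near Cp holds no CG.

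**Figure D5:**
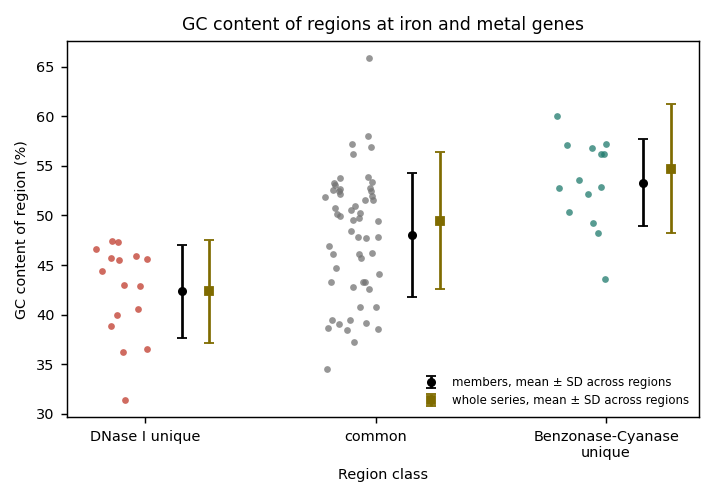
Points are the 86 regions of the 10 windows by class (horizontal axis) and GC content in percent (vertical axis, not from 0), with the mean and SD across regions for the members (circles) and the whole series (squares). DNase I unique regions average 42.4%, common regions 48.0% and Benzonase-Cyanase unique regions 53.3%, close to the series means of 42.3%, 49.5% and 54.7%.

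Base by base the order was the same when the shared bases were those covered by all 3 lists. The 41563 bases covered by all 3 lists had a GC content of 50.3% and 2.58 CG per 100 bases. The 20067 bases of Benzonase or Cyanase without DNase I had 53.7% and 2.66, and the 14455 bases of DNase I alone had 42.6% and 1.21. A further 3660 bases, covered by DNase I and by Benzonase or Cyanase but not both, had 43.0% and 1.09, close to DNase I alone.

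Median hotspot width in the windows was 709 bp with Benzonase, 712 bp with Cyanase and 719 bp with DNase I, against 652, 641 and 649 bp in the whole lists. Hotspots over 1000 bp numbered 17 with Benzonase, 14 with Cyanase and 9 with DNase I, or 23.9%, 20.3% and 11.4%. In the whole lists such hotspots made up 22.5%, 20.2% and 13.2%, so the members lay near the shares over all hotspots. The widest measured 2871, 3135 and 1768 bp. In 48 regions with exactly 1 hotspot of each list, the bounds of Benzonase and Cyanase lay a median of 26 bp apart, those of Benzonase and DNase I 48 bp and those of Cyanase and DNase I 53.5 bp. The corresponding medians over 33922 regions of the series were 33, 71 and 70 bp. Of the 96 bounds in the windows 75, 50 and 46 lay within 50 bp of each other (78.1%, 52.1% and 47.9%), against 44075, 26101 and 26146 of 67844 in the series. Benzonase and Cyanase, both used on frozen tissue, thus shared their bounds more closely with each other than with DNase I, also at these genes.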

How the data were processed

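The 7 samples were mouse livers digested with 1 of 3 nucleases. Tags were aligned by the authors with Eland or Bowtie and pooled by nuclease. The study called its hotspots with an FDR of 0% and the mode of tag density as threshold. The lists used here hold 60910 Benzonase, 57675 Cyanase and 72286 DNase I hotspots, more than the study reports for each nuclease. They are therefore not the sets it analysed, and whether they were called with the same settings is not known. Per the labels the build is mm9, and the track line of the DNase I list names 2 pooled libraries. The deposited lists give only the position of a hotspot in 3 columns, without counts or scores, so depth per hotspot is unknown. There were 0 columns of other samples.

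Positions were counted from 1 and joined to GENCODE M1 (NCBIM37), where Tfr2 is named Trfr2. Of its 2 entries for Trf the known protein-coding one was used. A window was the gene body and 20 kb either side. Overlaps of at least 1 bp joined hotspots into regions, and the joining was tested on simulated lists. A gene counted as having a TSS hotspot if a hotspot held any start site of its protein-coding transcripts. CpG islands were maximal-scoring segments (17 for a CG, -1 otherwise) with a length of 200 bp or more, over 50% GC and a ratio of observed to expected CG over 0.6. In the Cyanase list 2 hotspots ended past their chromosome and were shortened for sequence content. Motifs were matched by letters. Scripts ran in Python 3.11.15 with Biopython 1.88, matplotlib 3.10.9, numba 0.67.0, numpy 2.4.6, pandas 2.3.3 and scipy 1.17.1.

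The members, gene lists and alternatives were chosen with earlier results of these data known. All 10 members are described. Hotspots are given by their bounds where they cover a member TSS, are the widest of a window, or belong to a unique class in the gene or within 5 kb upstream. Others, and the bounds of printed sequences, were chosen after their values were seen. Genes of a wider iron and metal list are named where the lists differ or none has a TSS hotspot. The alternatives varied the TSS set, window size, hotspot width, overlap, joining, part of the region and island definition. Tags and tag densities were not analysed here.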

Additional observations from a re-analysis of the deposited data

How the results depend on the processing

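Of 78 alternative values for 21 results, 67 stayed close to the reported value and 11 moved. A mean GC content counted as close when it stayed within the SD across regions, which is a wide margin. Whether a direction reversed was not scored. Counts of hotspots moved with the size of the window: 27, 27 and 32 (Benzonase, Cyanase and DNase I) in the gene bodies alone, 44, 41 and 48 with 5 kb either side, and for DNase I 127 with 50 kb. DNase I had the most hotspots at each size, and its whole list was also the longest, with 72286 against 60910 and 57675. With 20 kb either side, the windows held 0.117% of the Benzonase list, 0.120% of the Cyanase list and 0.109% of the DNase I list. The share of common regions was 76.7% in the gene bodies alone, 76.6% with 5 kb either side and 52.4% when hotspots had to overlap by 50% of each other. With islands of at least 500 bp, 0 Benzonase-Cyanase unique regions held one. The DNase I count of members with a TSS hotspot was 10 when a TSS within 1 kb sufficed, which took in Hfe, and 8 when hotspots under the lower width quartile were left out, since the Mt2 hotspot of 503 bp was then dropped. Alternatives chosen after the data were seen, namely the longer entry of Trf and leaving out the Mt1 and Mt2 window, changed no call. No paired analysis was possible because each nuclease has 1 pooled list with no replicates, and no replicate could be left out. Depth per hotspot is unknown, so a region without a hotspot of a list may have tags below the threshold.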

Other observations

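Beyond the 10 members, 53 further genes of iron, haem, copper and zinc handling were looked up in the same lists. A TSS lay in a Benzonase hotspot for 47, in a Cyanase hotspot for 46 and in a DNase I hotspot for 43, or 88.7%, 86.8% and 81.1%, against 57.4%, 55.7% and 47.4% of all genes. All 7 genes of iron storage and the iron regulatory protein system had a TSS hotspot in every list. So did 7 of 8 genes of iron uptake, 7 of 8 genes listed under haem and 10 of 12 of copper and zinc handling. The exception listed under haem was Ltf (lactoferrin), which does not handle haem. Neither of 2 ferroxidases did.

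The 4 genes at which the lists differed all belonged to the 16 genes of hepcidin control by BMP and SMAD. Bmp2, a ligand of the pathway, Bmpr2, its type II receptor, and Hamp2 had a TSS in Benzonase and Cyanase hotspots but no DNase I hotspot. Fam132b, which encodes erythroferrone, the hormone by which erythroblasts lower hepcidin, had one with Benzonase alone. DNase I had no TSS hotspot at any of the 4, and at Fam132b Cyanase had none either. Over all genes the lists differed at 13.1%, so 4 of 53 is no excess of such genes. Whether this group differs from the others was not tested.

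The 6 genes with no TSS hotspot in any list were Cybrd1, the duodenal iron reductase, Heph and Hephl1, ferroxidases related to ceruloplasmin, Ltf, which encodes lactoferrin, and Mt3 and Mt4, metallothioneins known from brain and squamous epithelium. Mt4 and Heph had 0 hotspots of any list in the gene and 20 kb either side. Mt3 had 4, 3 and 5 with Benzonase, Cyanase and DNase I in the same span, none of them over its TSS. Whether these hotspots are among those already counted in the Mt1 and Mt2 window was not tested.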
